A study of Mus musculus with 2 samples.

Results

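Late deuterosomal cells are the last of the 3 deuterosomal stages that the deposited cell annotation names on the way to multiciliated ependymal cells. They were taken here as every cell that carries the deposited population name LateDeuterosomal, which gave 565 cells of 16401. Of these, 440 came from replicate 1 and 125 from replicate 2. They made up 3.66% of 12028 cells in replicate 1 (exact 95% binomial interval 3.33 to 4.01%) and 2.86% of 4373 cells in replicate 2 (2.38 to 3.40%). Within the 5 stages of the multiciliated lineage (early, mid and late deuterosomal cells, early MCCs and MCCs, where MCC stands for multiciliated cell) they were 9.39% and 9.30% of the cells. The stages they were set against held 1233 mid deuterosomal cells, 808 early MCCs, 1113 early deuterosomal cells and 2311 MCCs, and the cycling progenitors of the same cultures held 759 cells.

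The study profiled primary cultures of the lateral ventricular walls of newborn mice aged P0 to P2, in 2 single-cell RNA-seq libraries. Replicate 1 has the genotype C57BL/6N and replicate 2 C57BL/6J, so substrain, culture and library cannot be told apart, and every population compared holds cells of both. The walls were cut up and digested with papain, the cells were grown in serum until confluent, and shaking overnight took off neurons, oligodendrocytes and other unwanted cells. Serum-free medium then set off ependymal differentiation for 2 days, after which all stages were harvested together with trypsin, labelled on a surface protein and run on the 10x Genomics 3′ v3 chemistry. These are cells in culture without a knockout or a drug, and the stages are read from 1 time point.

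Multiciliated cells are postmitotic epithelial cells that build many motile cilia, each on a basal body of its own. The extra centrioles are made in bulk, many of them on deuterosomes, which are ring-like platforms organised by the protein Deup1, and are then released, docked at the surface and turned into basal bodies. Proteins of the mitotic machinery, among them cyclin-dependent kinases, polo-like kinases and the anaphase-promoting complex (APC/C), a ubiquitin ligase that marks cyclins for destruction, are known to time these steps in ependymal cells, although the cells do not divide.

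The late deuterosomal sums held 9847475 UMIs (unique molecular identifiers, counted RNA molecules) in replicate 1 and 2812846 in replicate 2, out of 173510950 and 70611931 in the whole libraries. A count of 0 in these sums allows up to 0.305 and 1.07 CPM (counts per 1e6 UMIs of the sum). The median late deuterosomal cell had 20650 and 22456 UMIs in the 2 libraries, against 17984 and 20436 in mid deuterosomal cells and 16265 and 19910.5 in early MCCs, so late cells were the deepest of the 5 stages in both libraries. After thinning every cell to 5000 UMIs the median number of genes per cell was 2457 and 2461.5 in late cells and 2481 and 2501 in mid cells. Of the 13 barcodes that the libraries shared none belonged to a late deuterosomal cell.

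Levels below are CPM of UMI counts summed over the cells of a population in 1 library, so each population has 2 values, given in the order replicate 1, replicate 2. Changes are log2 fold changes with their standard error, and adjusted p-values are Benjamini-Hochberg values from edgeR's quasi-likelihood test over 15877 genes. The labels call the libraries duplicates, and the p-values rest on the spread left between the 2 libraries after population and library are taken into account. The population names presumably rest on the same counts, so a difference between populations describes how they were drawn and is not independent evidence that they are distinct.

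The 3 genes taken as markers of the stage were Ccna1, which encodes cyclin A1, Ccnb1, which encodes cyclin B1, and Cdc20, which encodes an activator of the APC/C. Ccna1 was at 54.1 and 44.4 CPM in early deuterosomal cells, 415 and 316 in mid cells, 638 and 589 in late cells, 414 and 395 in early MCCs and 80.3 and 119 in MCCs. Both late values lay above every value of the other stages, and the mean of 614 CPM was 1.52 times the highest of the other stages. Ccnb1 was at 21.4 and 26.0 CPM in early deuterosomal cells, 183 and 207 in mid cells, 295 and 306 in late cells, 6.46 and 6.87 in early MCCs and 3.81 and 4.59 in MCCs. Cdc20 followed the same order, with 65.9 and 84.6, 298 and 307, 366 and 345, 7.97 and 5.62, and 4.69 and 4.59 CPM over the same 5 stages. The values of late and mid cells did not overlap for any of the 3 genes, but only Ccna1 (0.67 ± 0.22, adjusted p = 0.039) and Ccnb1 (0.55 ± 0.13, adjusted p = 0.0032) passed the test between them. Cdc20 differed by 0.15 ± 0.14 (adjusted p = 0.47), and passed with the lineage and cycling progenitors alone in the fit (0.23, adjusted p = 0.046). Against early MCCs, Cdc20 and Ccnb1 were higher in late cells by 5.59 ± 0.20 (adjusted p = 9.8e-15) and 5.48 ± 0.20 (adjusted p = 1.3e-15) on the log2 scale. Ccna1 did not pass (0.60 ± 0.22, adjusted p = 0.063), except with thinned cells, equal numbers of cells or without the deepest cells. It also passed with late and mid cells of the deposited cell cycle class S/G2 alone, where early MCCs kept all their classes.

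**Figure D1:**
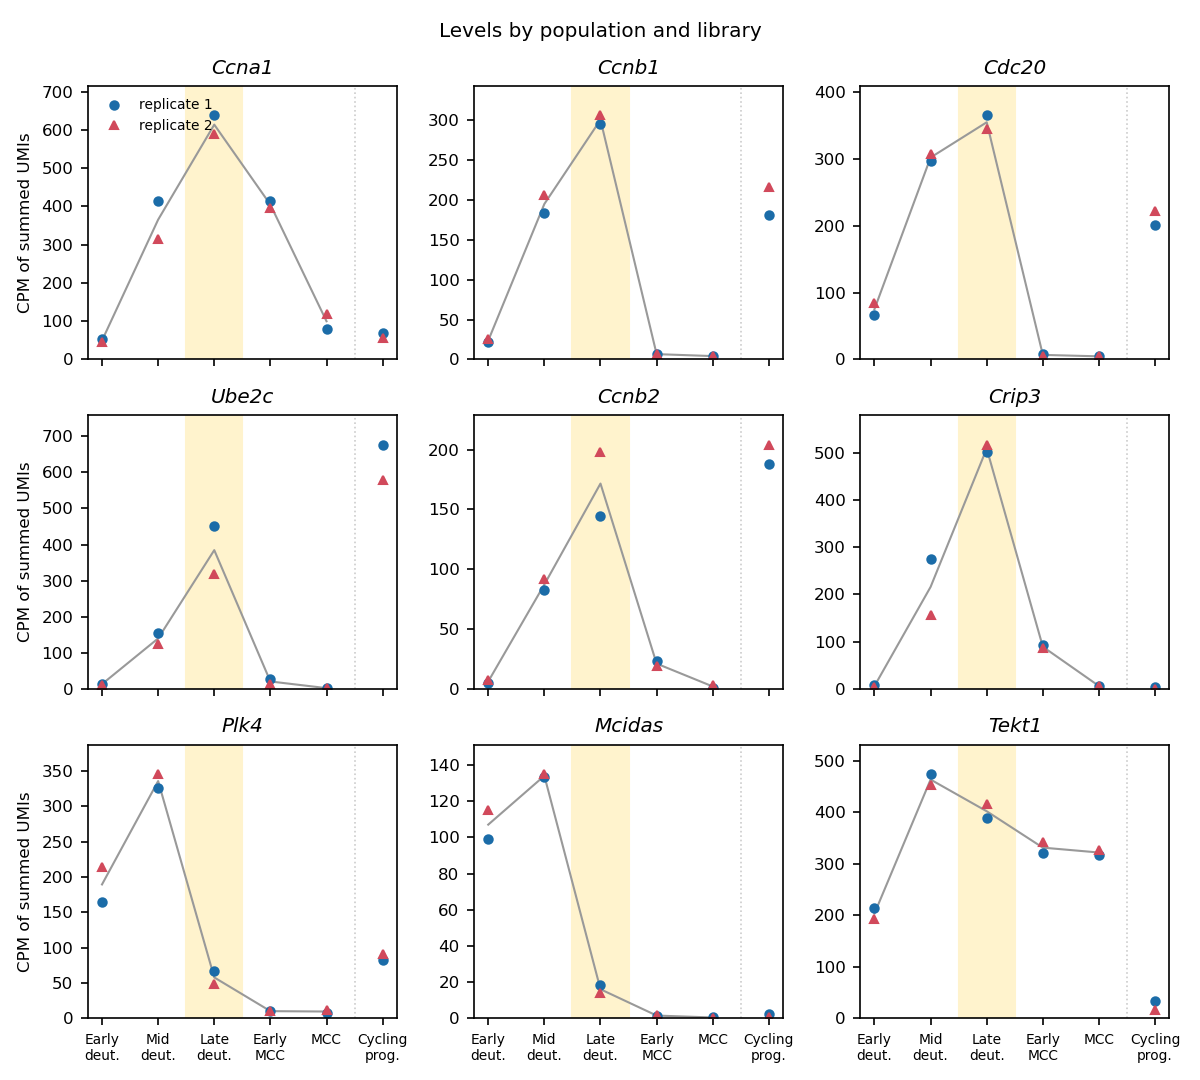
CPM of summed UMIs (vertical axes, linear, from 0) in the 5 stages of the lineage and in cycling progenitors for 9 genes, with circles for replicate 1, triangles for replicate 2, a line through the stage means and the late deuterosomal stage shaded. Ccna1, Ccnb1, Ube2c, Ccnb2 and Crip3 are highest of the 5 stages in the shaded column in both libraries, while Plk4 and Mcidas are already down there.

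Single cells were compared after thinning to 5000 UMIs. At least 1 Ccna1 UMI was found in 91.5% of late cells in replicate 1 (88.5 to 94.0%) and 94.7% in replicate 2, against 78.4% and 72.0% of mid cells. Without thinning the shares were 100% and 96.8% of late cells and 95.8% and 95.2% of mid cells. The thinned share was 79.2% and 76% in early MCCs, and 6.57% and 6.69% in progenitors I, a population outside the 5 stages. Ccnb1 was found in 67.3% (62.7 to 71.7%) and 59.6% (50.1 to 68.7%) of late cells, against 51.9% and 50.6% of mid cells, with 0.838% and 1.07% in progenitors I. Without thinning these were 89.5% and 80.8% of late cells and 81.4% and 81.3% of mid cells. In replicate 2 the order of late and mid cells was thus reversed without thinning, and the thinned interval of late cells includes the mid share. Ccnb1 and Deup1 occurred together in 48.3% and 48.2% of late cells, against 51.0% and 50.6% of mid cells and 3.86% and 2.58% of cycling progenitors. Deup1, with or without Ccnb1, was found in 72.3% and 77.2% of late cells and 98.3% and 99.7% of mid cells. It was found in 72.4% and 70.9% of early deuterosomal cells, 40.4% and 46.7% of early MCCs and 5.03% and 4.29% of progenitors I. The thinning left out cells with fewer UMIs, 3 and 11 of the late cells and 5 and 7 of the mid cells, so it changed the cells as well as their depth.

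Between late and mid deuterosomal cells, 1367 genes were higher and 2095 lower in late cells, which is 8.61% and 13.2% of the genes tested. The median change over all genes was −0.01. Late cells were the deeper population, and with every cell thinned to 5000 UMIs the counts were 766 higher and 1020 lower. The split also moved with the scaling. Higher genes were 39.5% of the calls with TMM factors, 57.0% with relative log expression factors, which moved the median of all genes to 0.09, and 53.1% with library totals alone. The changes of the genes given next kept their direction under these scalings.

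The mitotic genes did not move as a block between the mid and late stages. Of 32 tested genes in the list of G2 and M phase kinases and cyclins, 8 were higher in late cells, 8 were lower and the median change was 0.05. With relative log expression factors 8 were higher and 2 lower, so the losses in this list depend on the scaling. The 8 higher were the cyclins Ccna1, Ccna2, Ccnb1 and Ccnb2, the phosphatase Cdc25b that activates Cdk1, Ckap2, Ube2c and Mybl2. The 8 lower were Cdk1 itself, its small subunits Cks1b and Cks2, its inhibitor Wee1, the kinases Aurka, Nek2 and Melk, and Lin54.

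Ccnb2, which encodes cyclin B2, was at 145 and 198 CPM in late cells, against 82.4 and 92.1 in mid cells (0.87 ± 0.14, adjusted p = 9.7e-05). Ccna2, the cyclin A of dividing cells, stayed low at 15.1 and 13.9 CPM in late cells, against 8.14 and 9.32 in mid cells (0.73 ± 0.25, adjusted p = 0.036). Cdc25b was at 9.14 and 9.24 CPM in late cells and 1.88 and 1.42 in mid cells (2.33 ± 0.36, adjusted p = 3.9e-05). Late and mid values did not overlap for these genes, and the rise of Ccna2 was 0.80 in replicate 1 alone and 0.47 in replicate 2 alone. On the other side, Cdk1 was at 524 and 450 CPM in late cells and 641 and 649 in mid cells (−0.49 ± 0.16, adjusted p = 0.030). This call was lost under relative log expression factors (adjusted p = 0.16), with library totals alone (0.097) and with DESeq2 (0.28). It was also lost without the library in the model (0.23), with equal numbers of cells (0.12) and with no filter on low counts (0.069). The same held with late and mid cells of class S/G2 alone (0.14) and, narrowly, without the unnamed cells (0.0505). Aurka, a spindle pole kinase, was at 70.2 and 52.6 CPM in late cells and 87.5 and 77.4 in mid cells (−0.48 ± 0.15, adjusted p = 0.021). Its call was lost under relative log expression factors (0.084), with library totals alone (0.059) and with DESeq2 (0.43). It was also lost without the library in the model (0.28) and with late and mid cells of class S/G2 alone (0.14). Plk1, the polo-like kinase of mitotic entry, was at 126 and 111 CPM in late cells and 100.2 and 107 in mid cells, which did not pass (0.13 ± 0.12, adjusted p = 0.49). Nek2, a centrosome kinase, fell more clearly, to 67.7 and 71.8 CPM in late cells, against 123 and 153 in mid cells (−1.03 ± 0.13, adjusted p = 2.7e-06).

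The cyclin calls were not all stable. With DESeq2 the adjusted p was 0.18 for Ccna1, 0.15 for Ccna2 and 0.07 for Ccnb1, and without the library in the model it was 0.35, 0.25 and 0.17. Ccna1 also missed the threshold with no filter on low counts (0.076), and Ccna2 with thinned cells (0.12) and with equal numbers of cells (0.14). Ccnb2 passed under every alternative fit, with changes of 0.79 to 0.98. Mybl2 missed the threshold with thinned cells (0.36), with DESeq2 (0.077) and without the library in the model (0.17). It also missed it with late and mid cells of class S/G2 alone (0.081).

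Of 23 tested genes of the APC/C and its partners 16 did not pass between late and mid cells. Ube2c, the ubiquitin-conjugating enzyme that works with the APC/C, was at 450 and 319 CPM in late cells, against 155 and 124 in mid cells (1.37 ± 0.23, adjusted p = 0.0008). Fzr1, which encodes the activator Cdh1 that takes over from Cdc20 at the end of mitosis, was at 51.1 and 49.4 CPM in late cells, against 31.0 and 32.1 in mid cells (0.60 ± 0.11, adjusted p = 0.00024). Both were higher in late cells in each library, and they were the 2 genes of 23 tested that rose, a share near the 8.61% over all genes tested. The 5 that fell were the core subunits Anapc5 and Cdc27, the enzyme Ube2s, Cdc20b and Fbxo43, where 13.2% of all genes tested fell. The list median was −0.04, or 0.07 with relative log expression factors. Cdc20b, a Cdc20 paralogue whose gene sits beside Ccno and Mcidas, was at 28.9 and 35.6 CPM in late cells, against 68.9 and 80.7 in mid cells (−1.31 ± 0.16, adjusted p = 1.2e-06). Fbxo43, which encodes the APC/C inhibitor Emi2 known from eggs, was at 10.2 and 6.75 CPM in late cells and 27.4 and 21.4 in mid cells (−1.55 ± 0.28, adjusted p = 0.00028). Its relative Fbxo5, which encodes Emi1, was at 6.5 and 2.84 CPM in late cells and 2.90 and 3.23 in mid cells (0.82 ± 0.42, adjusted p = 0.19), and passed with the lineage and cycling progenitors alone in the fit (0.86, adjusted p = 0.013).

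Genes that act on chromosomes were mostly lower or not past the test. In the kinetochore and checkpoint list 11 of 39 fell, 1 rose, and the median was −0.28, against 5 lower and 2 higher with relative log expression factors. The one that rose was Cenpa, the histone variant that marks centromeres, with 226 and 195 CPM in late cells and 110 and 114 in mid cells (0.84 ± 0.23, adjusted p = 0.019, and 0.096 with DESeq2). Knl1, a kinetochore scaffold, was at 84.6 and 87.5 CPM in late cells and 138 and 174 in mid cells (−0.90 ± 0.18, adjusted p = 0.0015, and 0.18 with DESeq2). Of 16 cytokinesis genes 4 fell, 1 rose, and the median was −0.32. Kif23, the kinesin of the central spindle, was the one that rose, to 56.7 and 58.7 CPM in late cells, against 28.2 and 31.8 in mid cells (0.89 ± 0.15, adjusted p = 7.9e-05). Among 22 genes of chromosome condensation and cohesion 4 rose and 5 fell, with a median of −0.18. Nusap1, a spindle protein that binds chromatin, was at 78.9 and 64.0 CPM in late cells and 25.2 and 27.3 in mid cells (1.41 ± 0.21, adjusted p = 7.5e-05), and the condensin subunit Ncapd2 at 35.1 and 30.6 CPM in late cells and 16.6 and 14.9 in mid cells (0.99 ± 0.16, adjusted p = 5.4e-05).

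Of 46 DNA replication genes 8 rose and 14 fell, with a median of 0.11. Gmnn encodes geminin, which blocks the licensing of replication origins, and was at 56.7 and 44.8 CPM in late cells and 35.9 and 31.1 in mid cells (0.53 ± 0.18, adjusted p = 0.034, and 0.11 with DESeq2). Cdt1, the licensing factor that geminin binds, was at 5.48 and 3.56 CPM in late cells and 15.6 and 15.4 in mid cells (−1.71 ± 0.24, adjusted p = 1.3e-05).

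Genes that build centrioles were lower in late than in mid cells as a group. Of 26 tested genes of deuterosome and centriole assembly 22 fell and 1 rose, with a median change of −0.98, against a median of −0.01 over all genes. Plk4, the kinase that starts centriole formation, was at 66.6 and 49.1 CPM in late cells, against 326 and 345 in mid cells (−2.55 ± 0.18, adjusted p = 1.6e-08). Cep152, which recruits Plk4, was at 6.70 and 6.04 CPM in late cells and 40.4 and 51.4 in mid cells (−2.80 ± 0.20, adjusted p = 6.2e-10). Stil, a partner of Plk4, was at 22.5 and 16.4 CPM in late cells and 92.6 and 112 in mid cells (−2.33 ± 0.18, adjusted p = 4e-09).

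Deup1 fell less steeply and remained abundant, at 369 and 334 CPM in late cells, against 1019 and 1080 in mid cells (−1.67 ± 0.18, adjusted p = 6.3e-06). In all 4 genes the late values lay below every mid value. The gene of the list that rose was Ccdc78, known from Xenopus to act in deuterosome-dependent centriole assembly, with 58.6 and 32.7 CPM in late cells and 36.7 and 16.4 in mid cells (0.70 ± 0.17, adjusted p = 0.0033). Its populations overlapped across libraries although each library rose, and its adjusted p was 0.098 with DESeq2 and 0.37 without the library in the model. Of 20 genes of centrins, pericentriolar material and centriole release 6 fell and none rose, or 6 and 3 with relative log expression factors. Pcnt, the pericentriolar scaffold pericentrin, was at 65.2 and 69.3 CPM in late cells and 174 and 234 in mid cells (fell by 1.65 on the log2 scale, SE 0.11).

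The regulators that start the programme were also down. Of 17 tested 10 fell and none rose, with a median of −0.60, or 9 and 1 with relative log expression factors. Mcidas, the geminin family cofactor that sets off multiciliation, was at 18.3 and 13.9 CPM in late cells, against 133 and 135 in mid cells (−3.07 ± 0.17, adjusted p = 3.5e-11). Ccno, which encodes cyclin O and is needed for mass centriole production, was at 53.1 and 38.0 CPM in late cells, against 314 and 370.1 in mid cells (−2.85 ± 0.28, adjusted p = 5.8e-06). Myb, a transcription factor of early multiciliation, was at 102 and 88.2 CPM in late cells and 466 and 491 in mid cells (−2.40 ± 0.25, adjusted p = 1.1e-05).

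Foxn4, another transcription factor of multiciliated cells, was at 9.44 and 9.60 CPM in late cells and 35.5 and 41.0 in mid cells (−2.04 ± 0.24, adjusted p = 7.7e-06, and 0.052 with DESeq2). Foxj1, a transcription factor of motile ciliation, was at 499 and 618 CPM in late cells and 864.5 and 1276 in mid cells and did not pass (−1.01 ± 0.42, adjusted p = 0.11). It passed with thinned cells, without the deepest cells and with a fit on the lineage and cycling progenitors alone, so its call depends on those settings. Gmnc, the geminin relative upstream of Mcidas, was at 12.8 and 9.60 CPM in late cells and 8.88 and 5.18 in mid cells and did not pass (0.56 ± 0.22, adjusted p = 0.075), though it did with relative log expression factors (0.028).

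**Figure D2:**
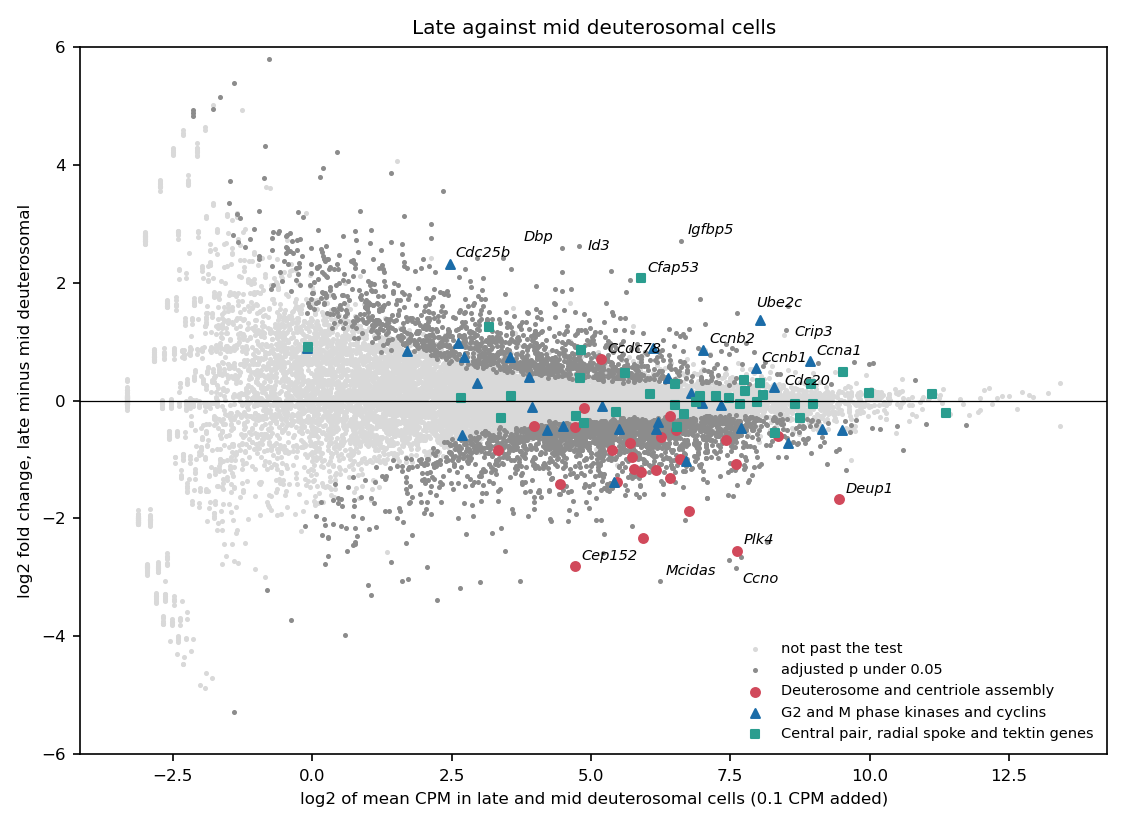
Log2 fold change of late over mid deuterosomal cells (vertical axis) against the log2 of their mean CPM (horizontal axis), with 1 point per tested gene and darker points past the test. Genes of deuterosome and centriole assembly (red circles) lie mostly below 0, 22 of 26 past the test, whereas the G2 and M phase list (blue triangles) is spread on both sides, with 8 past the test each way.

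Genes of the axoneme, the microtubule core of the motile cilium, mostly did not pass between mid and late cells. Of 39 genes of axonemal dyneins and their assembly factors 2 rose and 3 fell, and of 36 genes of the central pair, radial spokes and tektins 3 rose and none fell. Cfap53, a motile cilium protein, was at 83.9 and 112 CPM in late cells and 24.2 and 17.7 in mid cells (2.07 ± 0.36, adjusted p = 0.0019). Dnah3, an inner arm dynein heavy chain, was at 75.9 and 109 CPM in late cells and 53.0 and 53.7 in mid cells (0.66 ± 0.18, adjusted p = 0.013, and 0.23 with DESeq2). Of 39 genes of intraflagellar transport and the BBSome 9 fell and none rose, or 7 and 2 with relative log expression factors. Fam92b, which acts at the base of the cilium, was the one gene of 32 in the basal body list that rose, at 263 and 230 CPM in late cells, against 146 and 105 in mid cells (0.89 ± 0.15, adjusted p = 0.00016, and 0.053 with DESeq2 and 0.16 without the replicate block), and 8 fell.

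Several of the largest rises were in genes outside the cell cycle and the cilium. Igfbp5, a secreted binder of insulin-like growth factors, was at 160 and 184 CPM in late cells, against 26.7 and 22.4 in mid cells (2.71 ± 0.65, adjusted p = 0.0094). Id3, an inhibitor of basic helix-loop-helix transcription factors, was at 62.0 and 33.4 CPM in late cells and 8.60 and 6.47 in mid cells (2.62 ± 0.40, adjusted p = 0.00044). Dbp, a clock-controlled transcription factor, was at 59.7 and 16.7 CPM in late cells and 8.94 and 3.11 in mid cells (2.60 ± 0.21, adjusted p = 3.5e-09). The late values of all 3 lay above every mid value, though replicate 1 was above replicate 2 for Id3 and Dbp in both stages. By shares of thinned cells none of the 3 was most common in the late stage. Igfbp5 was in 22.9% and 22.8% of late cells, against 72.9% and 73.1% of early deuterosomal cells and 37.5% and 38.7% of early MCCs. Id3 was in 14.4% and 7.89% of late cells, 25.4% and 20.8% of early deuterosomal cells and 4.63% and 8.67% of early MCCs. For Dbp these were 21.7% and 8.77%, 15.9% and 5.19%, and 47.8% and 31.3%.

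Markers of other cells that the cultures could hold are given beside these. The summed level of 23 radial glia and astroglia markers was 14229 and 10045 CPM in late cells, against 12840.3 and 9768 in mid cells, and 4 of them rose and none fell, among them Id3 and Nes. The summed level of 8 mural and fibroblast markers was 620 and 573 CPM in late cells and 356 and 507 in mid cells, of which 1 of 5 tested rose. The 16 neuronal markers summed to 229.9 and 281 CPM in late cells and 231 and 307.5 in mid cells, with 1 lower. The 12 oligodendrocyte markers summed to 294 and 219.7 CPM in late cells and 305 and 269 in mid cells, and the 12 microglia markers to 41.2 and 30.9 and to 63.0 and 36.0 CPM, and no gene of these 2 lists passed. The neuronal gene Dlx6 and the fibroblast gene Lum were at 0 UMIs in both late sums. The summed level of 18 immediate early and stress genes was 11901 and 18001 CPM in late cells and 14629.5 and 20013 in mid cells, although 7 of them rose and none fell. The mitochondrial share of UMIs was 3.61% and 5.69% in late cells and 3.13% and 5.29% in mid cells. No source used here tells whether doublets were removed, and the part of other cells, depth or stress genes in the changes was not tested.

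Some genes were higher in late deuterosomal cells than in each of the other 4 stages. A gene was called a peak where all 4 contrasts were positive and past the test and its CPM was the highest of the 5 stages in both libraries. Against early deuterosomal cells 3291 genes (20.7%) were higher and 2830 (17.8%) lower in late cells, and against MCCs 3162 (19.9%) were higher and 2978 (18.8%) lower. By the rule 68 genes peaked, 0.428% of those tested, and 12 had a trough, 0.0756%. Peak levels were modest, with a median of 33.0 CPM and a range of 1.65 to 1056 CPM in late cells, and the median change from mid cells was 0.87. Of the 3 markers only Ccnb1 met the rule.

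Among the peaks 11 came from the 5 mitotic lists, out of 127 of their genes tested (8.66%). They were Nusap1, Cdc25b, Ube2c, Ccna2, Cenpa, Ncapd2, Ckap2, Kif23, Ccnb2, Fzr1 and Ccnb1. Among the named peaks with at least 25 CPM in late cells Ube2c had the largest ratio to the next stage, with a mean of 384 ± 93 CPM in late cells (SD, n = 2), 2.75 times the mid stage. Nusap1 followed at 2.72 times. Ncapd2, at 2.09, came after Crip3, which lies outside the mitotic lists and is given below. Ccnb2 averaged 6.17 CPM in early deuterosomal cells, 87.3 in mid cells, 172 ± 38 in late cells (SD, n = 2), 21.1 in early MCCs and 2.01 in MCCs, which put the late stage at 1.97 times the mid stage. Other peaks with a part in division included Cdkn3 and Gmnn, which do not complete that set. Cdkn3, a phosphatase that acts on cyclin-dependent kinases, was at 59.7 and 56.9 CPM in late cells and 35.0 and 30.1 in mid cells.

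The other named peaks lie outside the 5 mitotic lists. Crip3, a cysteine-rich LIM domain protein, was the most abundant of the named peaks, with 500.3 and 517 CPM in late cells, against 274 and 157 in mid cells and 92.7 and 85.6 in early MCCs. Its late mean was 2.36 times the next stage, and the change from mid cells was 1.19 ± 0.22 (adjusted p = 0.0016), with 0.79 in replicate 1 alone and 1.62 in replicate 2 alone. Krt8, the epithelial keratin 8, was at 67.0 and 39.1 CPM in late cells, 33.7 and 21.2 in mid cells and 21.4 and 20.9 in early MCCs (0.90 ± 0.22 from mid cells, adjusted p = 0.0096, and 0.14 with DESeq2).

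Trpc7, a cation channel, was at 59.7 and 50.8 CPM in late cells and 38.0 and 19.2 in mid cells (0.83 on the log2 scale, adjusted p = 0.00083), a change of 0.57 in replicate 1 alone and 1.31 in replicate 2 alone. Nnmt, nicotinamide N-methyltransferase, was at 32.0 and 49.1 CPM in late cells and 19.4 and 23.3 in mid cells (0.78, adjusted p = 0.0015, and 0.055 with DESeq2). For these 4 genes both late values lay above both mid values, an order that the peak rule already fixes within each library. Gpx7, Flacc1 and the non-coding RNA Lockd completed the named peaks, at 1.84, 1.83 and 1.66 times the next stage.

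**Figure D3:**
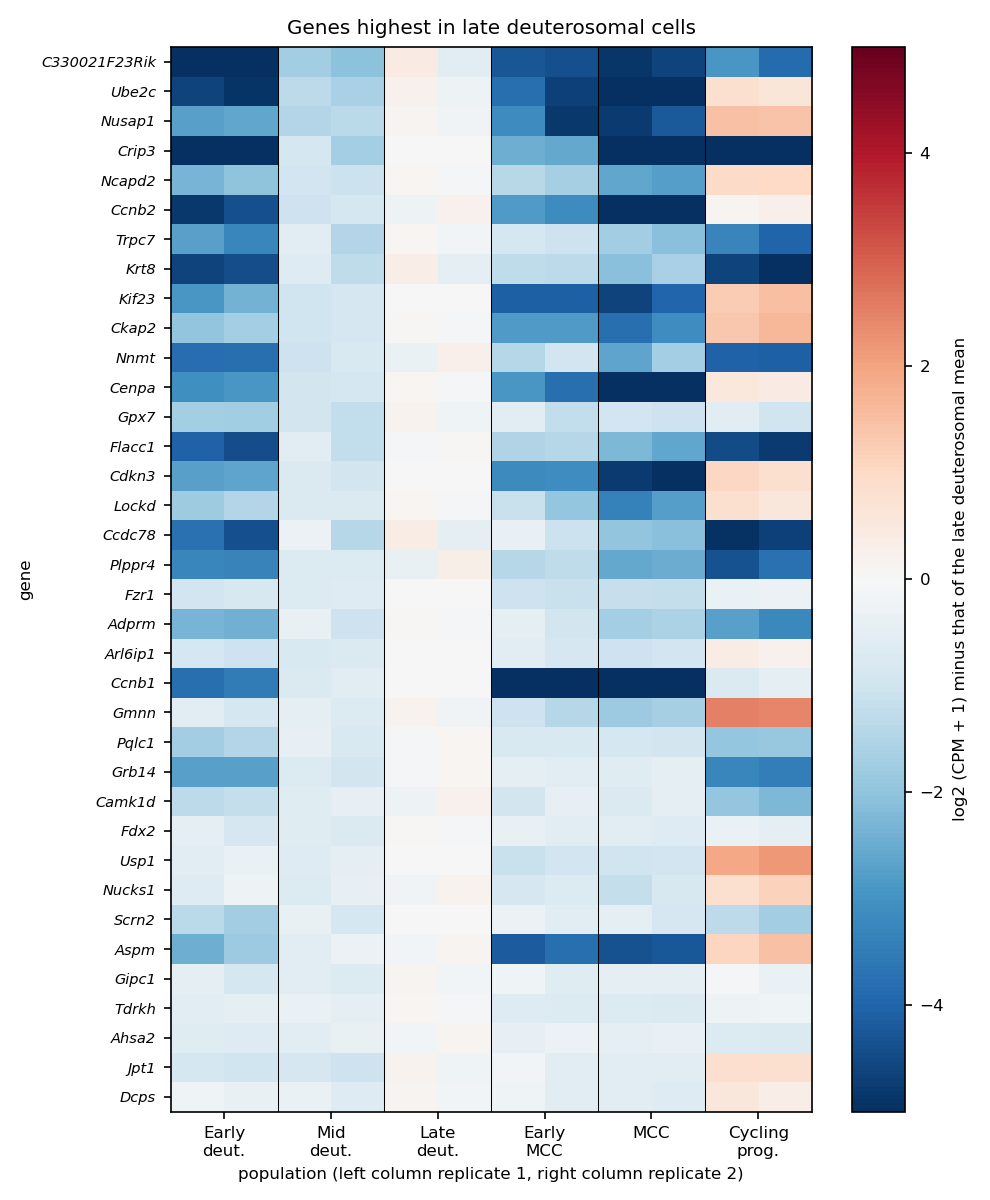
Heat map of the 36 peak genes with at least 25 CPM in late deuterosomal cells (rows) over the 5 stages and cycling progenitors (2 columns each, replicate 1 then replicate 2), coloured by log2 (CPM + 1) minus the late deuterosomal mean, so blue is below late cells and red above. All stages beside the late one are blue for these genes by the rule that chose them, and cycling progenitors are red in the rows of Nusap1, Kif23 and Ckap2, blue in that of Ccnb1 and dark blue in those of Crip3, Krt8 and Flacc1.

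Cycling progenitors took no part in that rule. Of the 68 peaks 24 were lower in late cells than in cycling progenitors, 36 were higher and 8 did not pass, where 25% of all genes tested were lower and 28.1% higher. Ube2c averaged 628 CPM in cycling progenitors and Nusap1 198, both above their late means of 384 and 71.4 CPM. Crip3 averaged 2.49 CPM there and Krt8 0.584.

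Of the 12 troughs, Gadd45b and Rb1 are the best known. Gadd45b, a stress and growth arrest gene, averaged 158 CPM in early deuterosomal cells, 61.2 in mid cells, 40.1 ± 1.4 in late cells (SD, n = 2), 70.9 in early MCCs and 80.2 in MCCs. Rb1, the retinoblastoma protein that holds back S phase genes, averaged 52.7, 28.2, 19.5 ± 1.9, 37.3 and 42.7 CPM over the same 5 stages. Their changes from mid cells were −0.70 ± 0.12 (adjusted p = 0.00021) and −0.56 ± 0.13 (adjusted p = 0.0025). Thinned cells gave 7 troughs in all, with Rb1 against mid cells at an adjusted p of 0.065, and the fit without the replicate block gave 0.065 for Gadd45b. The other named troughs were Slc35d1, Cdc42ep3 and Klhl9.

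Promoters of the genes that carry the late stage are shown with a pair of elements known from cell cycle genes. The first is the cell cycle genes homology region (CHR), searched as TTTGAA or TTCAAA, which binds the DREAM and Myb-MuvB complexes. The second is the CCAAT box, searched as CCAAT or ATTGG, which binds NF-Y. Each sequence runs 5′ to 3′ on the strand of the gene, from 250 bases before the RefSeq start to 50 after it (GRCm38.p6), and capitals mark both motifs. Where a CCAAT and an ATTGG share letters, as once in Ube2c, the run of capitals is joined. Positions are counted from the start, with negative numbers before it.

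The first 4 genes encode B cyclins and partners of the APC/C that are high in late cells, and Krt8 is a peak outside the cell cycle.
Ube2c, chr2:164769679-164769978, plus strand: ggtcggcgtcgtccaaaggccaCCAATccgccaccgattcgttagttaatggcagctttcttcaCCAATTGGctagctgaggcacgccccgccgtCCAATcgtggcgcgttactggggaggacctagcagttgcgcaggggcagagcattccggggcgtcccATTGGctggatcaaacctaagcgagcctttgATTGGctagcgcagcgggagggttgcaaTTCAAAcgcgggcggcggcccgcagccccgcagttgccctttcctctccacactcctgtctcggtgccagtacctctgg
Ccnb2, chr9:70421505-70421804, minus strand: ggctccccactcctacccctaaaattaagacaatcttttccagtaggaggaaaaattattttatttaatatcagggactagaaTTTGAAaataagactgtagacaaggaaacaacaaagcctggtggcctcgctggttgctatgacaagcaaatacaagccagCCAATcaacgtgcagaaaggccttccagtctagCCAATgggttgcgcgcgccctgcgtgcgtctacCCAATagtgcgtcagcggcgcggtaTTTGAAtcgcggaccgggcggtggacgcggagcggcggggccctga
Cdc20, chr4:118437294-118437593, minus strand: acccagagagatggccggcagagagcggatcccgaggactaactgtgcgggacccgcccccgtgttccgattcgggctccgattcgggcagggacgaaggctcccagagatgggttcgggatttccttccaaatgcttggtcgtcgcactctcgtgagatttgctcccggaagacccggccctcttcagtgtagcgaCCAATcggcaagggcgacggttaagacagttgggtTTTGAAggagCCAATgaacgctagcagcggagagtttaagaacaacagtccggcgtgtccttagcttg
Ccnb1, chr13:100786437-100786736, minus strand: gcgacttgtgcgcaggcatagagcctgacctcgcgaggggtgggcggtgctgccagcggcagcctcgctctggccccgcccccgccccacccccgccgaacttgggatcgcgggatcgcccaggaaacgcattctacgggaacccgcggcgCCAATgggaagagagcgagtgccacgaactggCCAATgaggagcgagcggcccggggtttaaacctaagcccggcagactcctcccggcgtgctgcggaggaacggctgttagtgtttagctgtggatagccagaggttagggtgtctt
Krt8, chr15:102004293-102004592, minus strand: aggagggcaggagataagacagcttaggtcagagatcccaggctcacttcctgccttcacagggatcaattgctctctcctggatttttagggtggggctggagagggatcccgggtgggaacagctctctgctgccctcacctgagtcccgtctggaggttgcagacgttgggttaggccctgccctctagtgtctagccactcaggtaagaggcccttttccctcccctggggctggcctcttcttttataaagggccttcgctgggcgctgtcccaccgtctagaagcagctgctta

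A CHR begins at −29 in Ube2c, at −18 in Cdc20 and at −167 and 5 in Ccnb2. CCAAT boxes begin at −87, −54 and −21 in Ccnb2, at −53 and −8 in Cdc20 and at −99 and −67 in Ccnb1. The Ccnb1 window holds neither TTTGAA nor TTCAAA, and other forms of the CHR were not searched. The Krt8 window holds neither motif as searched. RefSeq windows were matched for 50 of the 68 peaks and 11895 of 15877 genes tested. A CHR in the searched letters was present in 34% of the peak promoters, against 11.9% of all, and a CCAAT box in 60%, against 38.7%. Both motifs together were in 28% of the peaks and 4.97% of all, and in 43.5% of 23 promoters of the G2 and M phase list. They were in 4.07% of the 1229 promoters of genes lower in late cells than in early MCCs. These shares describe letters in a window and carry no test.

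The deposited metadata also give each cell a cell cycle class. S/G2 was the class of 76.1% and 73.6% of late cells, against 78.8% and 82.7% of mid cells. The G2/M class held 52 and 21 late cells, 11.8% (8.95 to 15.2%) and 16.8% (10.7 to 24.5%), against 2.61% and 1.98% of mid cells, while the S class held 7.05% and 3.2% of late cells and 15.1% and 13.0% of mid cells. G0 was the class of 5% and 5.6% of late cells, and in early MCCs the mean G0 share was 93.6 ± 3.46% (SD, n = 2). With 2 libraries per population these shares were given no test. The sources used here do not give how the classes were assigned, and they may rest on the same counts.

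Late cells of the G2/M class did not hold the most mitotic RNA. Ccnb1 was at 67.4 (52.4 to 85.2) and 37.2 (19.2 to 64.9) CPM in the late cells classed G2/M, against 361 (348 to 375) and 368 (343 to 395) CPM in those classed S/G2, where the ranges are exact Poisson 95% intervals that cover counting error only. Cdc20 was at 80.0 and 68.1 CPM in G2/M, against 443.5 and 421 in S/G2, and Cenpf, a kinetochore protein, at 59.5 and 86.7 against 390.2 and 427. The 33 genes of the G2 and M phase list summed to 2120.2 and 2022 CPM in the G2/M class and to 5437 and 4671 in the S/G2 class. The 26 genes of deuterosome and centriole assembly summed to 1233 and 1121 CPM in G2/M, against 1883 and 1913 in S/G2, and the 40 genes of axonemal dyneins and their assembly factors to 5549 and 6372 CPM in G2/M, against 5505 and 6561 in S/G2. Among single genes chosen after their values were seen, Ccna1 was at 635 and 601 CPM in G2/M and 670.3 and 605 in S/G2, and Foxj1 at 452 and 632 CPM in G2/M and 504 and 618 in S/G2. The G2 and M phase list had the same order in mid cells, with 1889.7 and 1823 CPM in the G2/M class and 4795 and 4527 in S/G2. The G0 class of late cells held Id3 at 206 and 145 CPM, against 57.0 and 26.9 in S/G2, and Igfbp5 at 388 and 528, against 150.5 and 175. That class was small, with 22 and 7 cells. Its median cell had 28216.5 and 35453 UMIs, against 20965 and 24081.5 in S/G2.

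**Figure D4:**
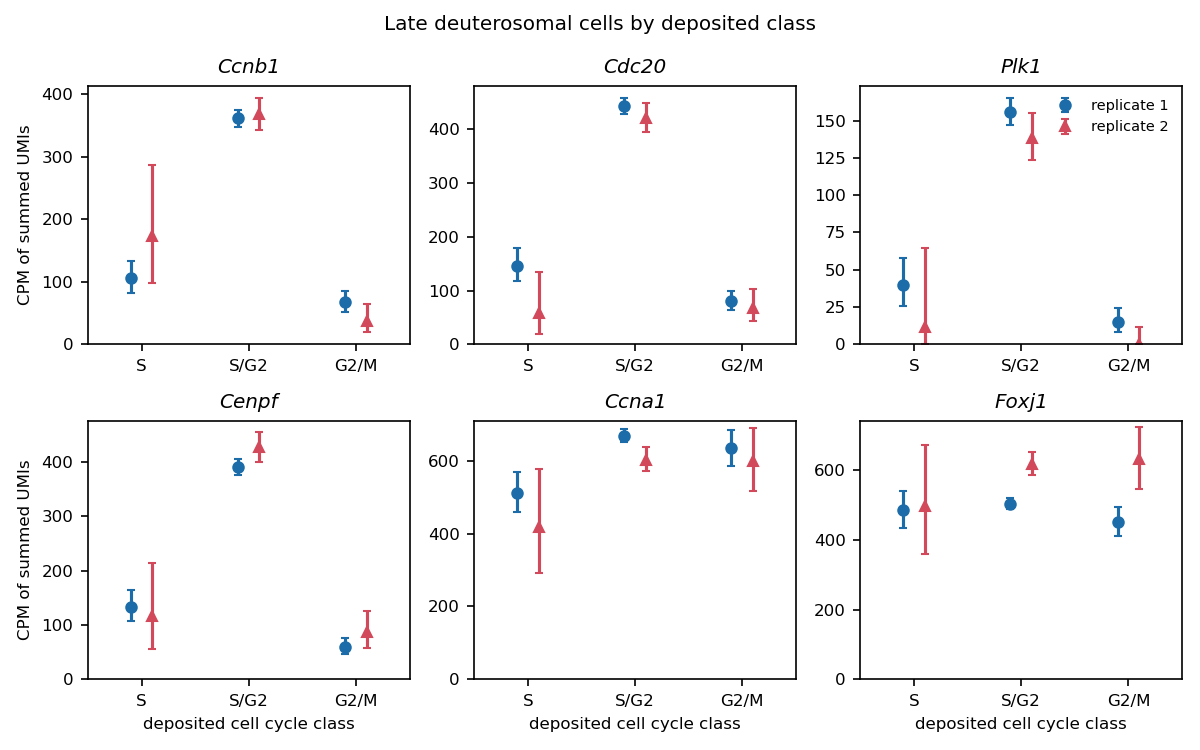
CPM of summed UMIs (linear axes from 0) of 6 genes in late deuterosomal cells of the deposited classes S, S/G2 and G2/M, with circles for replicate 1, triangles for replicate 2 and bars for exact Poisson 95% intervals. Ccnb1, Cdc20, Plk1 and Cenpf are highest in S/G2 and lie far lower in G2/M in both libraries, while Ccna1 and Foxj1 differ little between these classes.

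Summing the late and mid cells of class S/G2 alone, an alternative chosen after the data had been seen, gave 1084 genes higher and 1753 lower in late cells and 72 peaks. Leaving out classes G0 and G1 gave 1403 higher, 2000 lower and 76 peaks. Ccna1 missed the threshold in S/G2 cells alone (0.59, adjusted p = 0.084).

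Mitotic genes were far lower in early MCCs than in late deuterosomal cells. Over all genes, late cells were higher for 1971 genes (12.4%) and lower for 1642 (10.3%), with a median change of −0.01. Relative log expression factors turned this split round, with 1620 higher and 2392 lower and a median of −0.10. Of the G2 and M phase list 26 of 32 were higher in late cells and none lower (median 3.35), and of the kinetochore list 38 of 39 and none (median 3.08). Cytokinesis genes gave 14 of 16 higher (median 3.94), condensation and cohesion 16 of 22 (median 1.81) and the APC/C list 16 of 23 higher and 1 lower (median 0.43). In the G2 and M phase list Ccna1, Cdc25a, Pkmyt1, Arpp19, Ensa and Mybl2 did not pass.

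Hmmr, a spindle assembly factor, was at 108 and 82.1 CPM in late cells, against 0.587 and 0 in early MCCs (7.67 ± 0.49, adjusted p = 8.4e-09). Aurka was at 0.671 and 0.937 CPM in early MCCs, a change of 6.44 ± 0.32 (adjusted p = 1.9e-13). Cenpe, a kinetochore motor, was at 127 and 132 CPM in late cells and 1.59 and 1.87 in early MCCs (6.20 ± 0.38, adjusted p = 5e-09). Early MCCs held a handful of UMIs of these genes, so the size of the change depends on a few molecules while its direction does not. Plk1 (5.38 ± 0.21), Cdk1 (3.83 ± 0.19) and Ccnb2 (2.89 ± 0.17) were higher too, and Cdk1 kept 37.2 and 30.0 CPM in early MCCs.

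Centriole assembly genes, lower in late than in mid cells, were lower again in early MCCs. Of 26 tested, 24 were higher in late cells and none lower, with a median of 1.52. Plk4 was at 66.6 and 49.1 CPM in late cells and 9.99 and 10.3 in early MCCs (2.58 ± 0.26), and Deup1 at 369 and 334 CPM in late cells and 98.4 and 111 in early MCCs (1.77 ± 0.20). Mcidas was at 1.17 and 1.87 CPM in early MCCs, a change of 3.67. Foxj1 showed no call, with 499 and 618 CPM in late cells and 567 and 772 in early MCCs (−0.26 ± 0.42, adjusted p = 0.73).

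Few genes of the motile cilium changed at this step. Of 39 dynein genes 2 were higher and 2 lower in late cells, and of 36 central pair, radial spoke and tektin genes 2 were lower and none higher. The lower ones were Rsph4a, a radial spoke head protein, with 132 and 189 CPM in late cells and 274 and 360 in early MCCs (−1.0 ± 0.33, adjusted p = 0.045, and 0.25 with DESeq2), and Rsph14, with 39.8 and 34.8 CPM in late cells and 71.4 and 71.5 in early MCCs (−0.91 ± 0.17, adjusted p = 0.00039). Dchs1, a large cadherin that acts in planar polarity, was at 6.30 and 5.33 CPM in late cells and 34.8 and 45.0 in early MCCs (−2.64 ± 0.23, adjusted p = 3.9e-09).

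Fgfbp1, a binder of fibroblast growth factors, was at 10.3 and 4.98 CPM in late cells and 47.2 and 55.3 in early MCCs (−2.53 ± 0.36, adjusted p = 0.0002). Sostdc1, a secreted antagonist of BMP and Wnt signals, was at 87.8 and 46.9 CPM in late cells and 271 and 216 in early MCCs (−1.83 ± 0.31, adjusted p = 0.0007). Kdr, the VEGF receptor, was at 7.21 and 9.95 CPM in late cells and 26.9 and 32.5 in early MCCs (−1.82 ± 0.28). The values of late cells and early MCCs did not overlap for any of these genes, which were chosen by their values.

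Cycling progenitors are the dividing population of the same cultures. By deposited class they were 39.6% and 40.6% S/G2, 23.8% and 20.1% S, 21.2% and 20.5% G1 and 12.1% and 15.5% G0. Late cells were 76.1% and 73.6% S/G2, so the sums compare unlike mixtures of classes. The part of this in the changes was not tested. Most mitotic and replication genes were lower in late deuterosomal cells, while Ccna1, Ccnb1 and Cdc20 were higher. Late cells were higher for 4457 genes (28.1%) and lower for 3968 (25%), with a median change of 0.01. Of 46 replication genes 41 were lower in late cells (median −2.40), of 39 kinetochore genes 34 (median −1.33), of 22 condensation and cohesion genes 20 (median −1.14), of 16 cytokinesis genes 13 (median −0.88) and of 32 G2 and M phase genes 22 (median −0.73). The APC/C list differed from these in its counts, with 10 of 23 higher and 7 lower (median 0.13).

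Cyclins and their partners fell on different sides. Ccna2 was at 15.1 and 13.9 CPM in late cells, against 183 and 213 in cycling progenitors (−3.64 ± 0.19, adjusted p = 9.6e-13), and Ccne2, which encodes a cyclin E of S phase entry, at 0.914 and 0.356 CPM against 66.4 and 65.3 (−6.29 ± 0.34). The replicate 2 value of Ccne2 in late cells lies below the 1.07 CPM that a count of 0 allows. Ccna1 was at 638 and 589 CPM in late cells, against 67.8 and 56.9 in cycling progenitors (3.32 ± 0.25, adjusted p = 3.4e-08). Ccnb1 was at 295 and 306 CPM in late cells and 181 and 216 in cycling progenitors, and Cdc20 at 366 and 345 CPM in late cells and 202 and 223 in cycling progenitors (0.78 ± 0.14, adjusted p = 5.9e-05). For Ccnb1 the adjusted p was 0.00024, and the late values of both genes lay above those of cycling progenitors.

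Not all mitotic genes passed against cycling progenitors. Ccnb2 (−0.20 ± 0.14, adjusted p = 0.25), Plk1 (−0.21 ± 0.13, adjusted p = 0.18) and Aurka (0.10 ± 0.15, adjusted p = 0.63) did not pass. Plk1 passed with the lineage and cycling progenitors alone in the fit (−0.28, adjusted p = 0.033) and without the unnamed cells (−0.31, adjusted p = 0.039). Aurka passed with late and mid cells of class S/G2 alone (0.40, adjusted p = 0.032), a setting that left cycling progenitors with all their classes. The signs of the Plk1 and Aurka values depended on the cells used. The proliferation marker Mki67 was at 38.1 and 34.1 CPM in late cells, against 536 and 730 in cycling progenitors (−3.96 ± 0.37, adjusted p = 1.1e-06). The APC/C inhibitors went opposite ways, since Fbxo5 was at 6.5 and 2.84 CPM in late cells and 88.4 and 79.5 in cycling progenitors (−3.86 ± 0.28), and Fbxo43 at 10.2 and 6.75 CPM in late cells and 0.318 and 0.205 in cycling progenitors (4.98 ± 0.59, adjusted p = 1.8e-07, and 7.66 on the log2 scale with thinned cells). The Fbxo43 values in cycling progenitors do not exceed the 0.318 and 0.616 CPM that a count of 0 allows there, so the size of that change depends on a few molecules.

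Pttg1, which encodes securin, the APC/C target that holds back the separation of sister chromatids, was at 290 and 237 CPM in late cells and 80.4 and 54.6 in cycling progenitors (1.99 ± 0.16). Cdc20b was at 28.9 and 35.6 CPM in late cells and 1.49 and 0.205 in cycling progenitors (4.91 ± 0.33). Its replicate 2 value in cycling progenitors lies below the 0.616 CPM that a count of 0 allows there. Of the genes lowest in late cells, Ung, a uracil glycosylase of replication forks, was at 0.203 and 0.356 CPM in late cells and 27.1 and 25.7 in cycling progenitors (−6.72 ± 0.42), and Tk1, thymidine kinase, at 2.64 and 1.42 CPM in late cells and 115 and 113 in cycling progenitors (−5.49 ± 0.31). The late values of Ung lie below the 0.305 and 1.07 CPM that a count of 0 allows, so the size of its change depends on a few molecules.

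Lineage genes set the populations apart in the other direction. All 39 dynein genes and all 36 central pair, radial spoke and tektin genes tested were higher in late cells than in cycling progenitors, with medians of 3.0 and 3.42 (38 and 35 of them with thinned cells), and so were 37 of 39 intraflagellar transport genes (median 1.60), 28 of 32 basal body genes and 18 of 26 centriole assembly genes (median 0.71). Plk4 was among the exceptions, with 66.6 and 49.1 CPM in late cells and 81.8 and 90.3 in cycling progenitors (−0.47 ± 0.19, adjusted p = 0.048), a change of −0.26 in replicate 1 alone and −0.86 in replicate 2 alone that also missed the threshold with DESeq2 (0.10). Deup1 was at 369 and 334 CPM in late cells and 30.7 and 17.0 in cycling progenitors (3.86 ± 0.22, adjusted p = 3e-10). Crip3 had the largest rise of the named genes, 500.3 and 517 CPM in late cells against 4.56 and 0.411 in cycling progenitors (7.48 ± 0.37, adjusted p = 8.1e-10). With its few molecules in cycling progenitors that change was 6.75 in replicate 1 alone and 9.68 in replicate 2 alone.

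**Figure D5:**
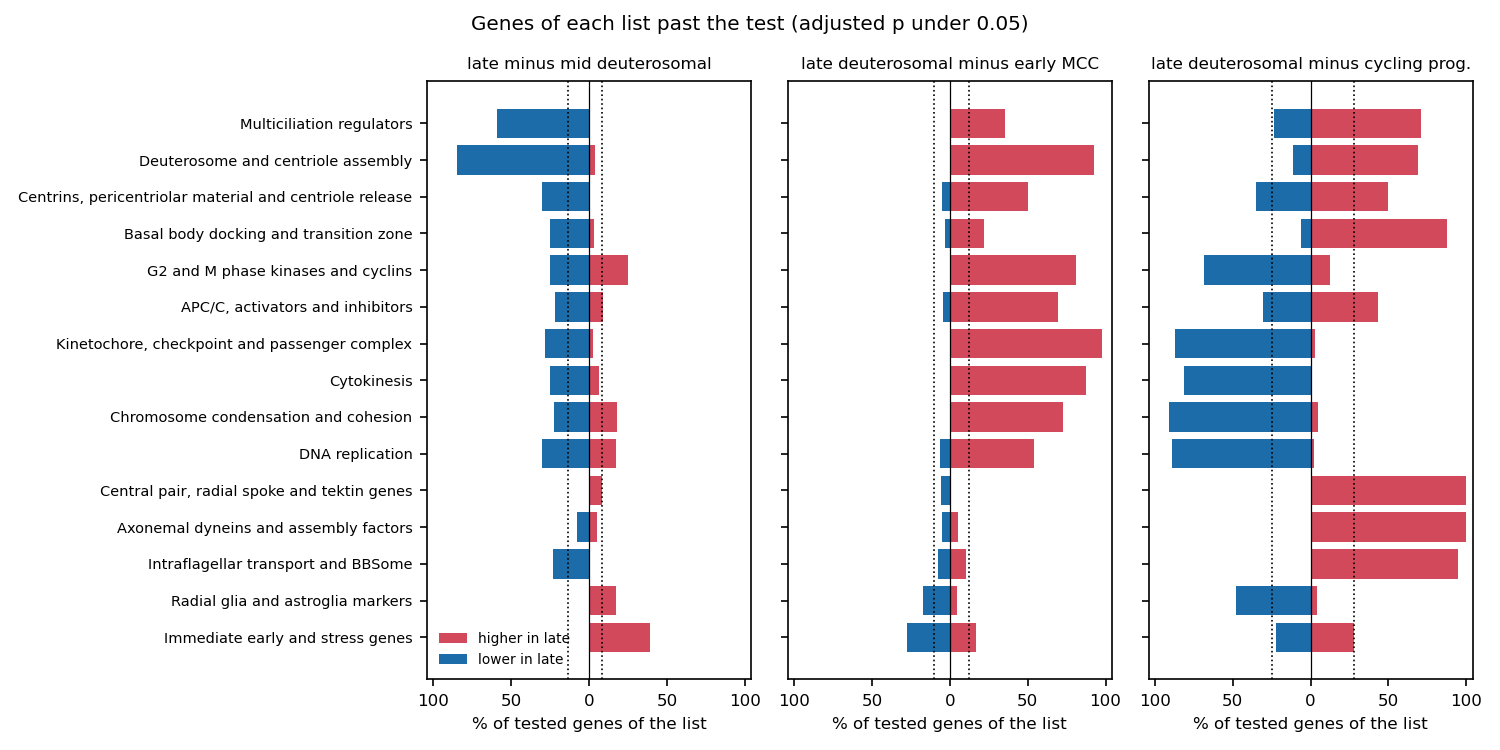
Percentage of the tested genes of each list (rows) that were higher (red, to the right) or lower (blue, to the left) in late deuterosomal cells at an adjusted p under 0.05, against mid deuterosomal cells, early MCCs and cycling progenitors; dotted lines give the percentages over all genes tested. The mitotic lists extend mostly to the right against early MCCs, and against mid cells they reach both sides. Against cycling progenitors they extend mostly to the left, except the APC/C list, with 10 of 23 higher and 7 lower. Centriole assembly extends mostly left against mid cells and right against early MCCs.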

How the data were processed

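The authors deposited UMI counts per gene and cell for 32287 genes with a table naming each cell's library, population and cell cycle class. Per the submitters' processing notes the tool was Cell Ranger (3 and 5.0.1) and the genome build mm10. Not given in the sources used here are the version behind each library, the use of strand in counting, the way names and classes were assigned, and any removal of doublets. The lowest cell had 2502 UMIs and the highest mitochondrial share was 9.99%, and no cell was removed here.

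Counts were summed per population and library, giving 26 sums over 13 populations (minimum 20 cells per library), and fibroblasts (18 cells in replicate 1) were left out. edgeR 4.0.16 (R 4.3.3, limma 3.58.1) was fitted with TMM factors (0.739 to 1.20), its default filter (15877 genes) and a model of population and library with 12 residual degrees of freedom. Tests were two-sided robust quasi-likelihood tests at 0.05 after Benjamini-Hochberg adjustment. Standard errors were taken as the size of the log2 fold change over the square root of F. CPM use the total of each sum and no composition factor. The script was tested on simulated data. Library was a block, since 1 culture gave all populations of a library, and deviations from population means correlated in all 15 pairs of 6 populations (0.364 to 0.576). Intervals are exact (scipy 1.17.1) and cover counting error only.

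Named genes were the 8 largest changes each way against mid cells, early MCCs and cycling progenitors (at least 25 CPM on the higher side, same direction in both libraries), the 15 peaks and 5 troughs with the most extreme ratios, the extremes of each list, and 20 fixed genes, of which the text gives a part. Further names in lists of 5 or fewer, and genes shown inside classes or as examples, were chosen after their values were seen. The members and lists were chosen with earlier results of these data known. Alternatives changed normalization, filter, populations fitted, block, depth and number of cells, deepest cells, test (DESeq2 1.42.0) and class.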

Additional observations from a re-analysis of the deposited data

How the results depend on the processing

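A fit on the lineage and cycling progenitors alone gave 2595 genes higher in late than in mid cells, 2600 lower in late cells than in early MCCs, 123 peaks and 48 troughs. Without the replicate block the counts of genes higher and lower in late cells were 332 and 664 against mid cells, 876 and 402 against early MCCs, 1828 and 1397 against early deuterosomal cells and 1707 and 1270 against MCCs, with 15 peaks and 1 trough. Cells thinned to 5000 UMIs gave 766 and 1020 against mid cells, 1177 and 1083 against early MCCs, 2928 higher against cycling progenitors, 1864 lower against early deuterosomal cells, 42 peaks and 7 troughs. Equal numbers of cells gave 1286 lower than in mid cells and 7 troughs. There were 21 troughs without the deepest cells and 20 with DESeq2. The cause of these moves was not tested.

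Higher genes made up 54.6% of the calls against early MCCs in the fit reported, 40.4% with relative log expression factors, 43.2% with DESeq2 and 68.5% without the block. Against mid cells they were 56.6% with DESeq2, 54.4% with the lineage and cycling progenitors alone and 49.8% with equal numbers of cells, where the fit reported had 39.5%. Of the 68 peaks 59 were also called with relative log expression factors, 40 with DESeq2, 34 with thinned cells and 15 without the block.

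Among named genes 4 values changed sign. Klhl9 against mid cells was 0.0058 and Ung against early MCCs 0.10 with thinned cells. Plk1 against cycling progenitors of all classes was 0.12 with late and mid cells of class S/G2 alone. Aurka against cycling progenitors was −0.0081 without the unnamed cells. Of 105 named genes against mid cells 81 kept direction and side of the threshold with DESeq2, 99 with relative log expression factors, 86 with thinned cells and 60 without the block. Of 85 against early MCCs the DESeq2 count was 79, and of 105 against cycling progenitors 101. Counts of calls cannot be had with 1 replicate left out, because no residual degrees of freedom are left, so single libraries give values only. Without replicate 1 the values of 33 of 105 named genes against mid cells, 37 of 85 against early MCCs and 28 of 105 against cycling progenitors moved by more than the SD between replicates, and without replicate 2 those of 5, 8 and 15. A fitted value midway between the libraries always lies within that SD of both, so these counts do not measure stability. The 125 late cells of replicate 2, at 2812846 UMIs, limit what can be called for genes under a few CPM.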

Other observations

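Genes outside the comparisons above were described by the remaining lists. Among 18 immediate early and stress genes 7 were higher in late than in mid deuterosomal cells and none lower, with a median change of 0.51, against −0.01 over all genes. They were Fosb, Jun, Ier2, Dusp1, Hspa1a, Btg2 and Zfp36. Ier2, an immediate early gene, changed by 1.20 ± 0.15 (adjusted p = 2.6e-06). None of the 18 passed without the replicate block. Against early MCCs 3 were higher and 5 lower in late cells.

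Of 22 genes of the E2F, Rb and DREAM list 10 were lower and 2 higher in late than in mid cells, with a median of −0.40. E2f7, a repressor of the E2F family, was at 11 and 9.60 CPM in late cells, against 58.3 and 68.8 in mid cells (fell by 2.59 on the log2 scale, SE 0.17). Cdkn1a, which encodes the cyclin-dependent kinase inhibitor p21, was at 141 and 76.8 CPM in late cells and 348 and 220 in mid cells (−1.43 ± 0.23, adjusted p = 0.00049). In both genes the late values lay below every mid value.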
